A study of Mus musculus with 8 samples.

Results

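The genes described here build the scaffold of the sarcomere: the Z-disc, the M-band and the thin filament, with the factors that assemble them. The set holds 38 genes, listed by name, with earlier results of these data known, out of 21980 gene symbol entries in the table, and each was read by 1 of its 22206 probe sets. RNA came from gastrocnemius (GAS) muscle of male C57/Bl6j mice and was hybridised to Clariom S mouse arrays. The GAS had received an intramuscular adeno-associated virus (AAV, serotype 1) at 10 weeks of age and was taken 3 months later, at 22 weeks, a stage also called 12 weeks after injection. One leg received AAV sh-RNA MYTHO, a short hairpin RNA against *D230025D16Rik* (*Mytho*), and these 4 muscles are called MYTHO-KD. The contralateral leg received AAV sh-RNA scramble, giving 4 control muscles, so both groups carried a virus and a hairpin under the U6 promoter, which is active in all cell types that the virus enters. No group without virus was analysed here.

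The table analysed gives the authors' average log2 signal of each group and its SD over 4 arrays, and no value of a single muscle. Whether single muscles of the groups overlapped can therefore not be stated, and the ranges of 1 SD around each average are given in its place. The target itself was lower, at 7.71 ± 0.66 in MYTHO-KD against 10.02 ± 0.37 in scramble (SD, n = 4), a log2 difference of -2.31. All 38 scaffold genes were flagged as expressed in both groups. So were all but 596 of the 22206 probe sets in scramble and all but 846 in MYTHO-KD. Of the 38 genes, 37 lay above the median signal of all probe sets and 31 in the top decile. In whole muscle, fewer cells of a type and less RNA per cell cannot be told apart.

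In the sarcomere, actin filaments of opposite polarity are crosslinked at the Z-disc by α-actinin, while myosin filaments are crosslinked at the M-band by myomesins. Titin runs from Z-disc to M-band, nebulin runs along the thin filament, and the free pointed end of actin is capped by tropomodulins or extended by leiomodins. Filamin C and the Xin proteins are known to gather at damaged or strained myofibrils. Many of these families have one member used mainly in fast fibres and another used in slow fibres, heart or developing muscle. The GAS is mostly a fast muscle with some slow fibres.

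Of the 38 scaffold genes, 5 met the study's call rule as raised, at least 2-fold with an unadjusted p under 0.05 (here by limma, moderated across all probe sets), and 0 fell. These were *Lmod2*, *Myom3*, *Flnc*, *Xirp1* and *Myoz2*. They make up 13.2% of the set, while 0.86% of all probe sets rose and 0.257% fell by the same rule. Without the fold limit, 8 genes were higher at p under 0.05 (21.1%, against 6.48% of all probe sets). Lower were 2 (5.26%, against 5.52%), a share near the background in this fit. In some other fits it was larger. Up to 5 of the 38 were lower, without moderation (1155 of 22206 probe sets) and with unequal variances (991 of 22206). Once p-values were adjusted for all 22206 tests (Benjamini-Hochberg), 1 scaffold gene, *Xirp1*, was higher (0.18% of all probe sets were) and 0 were lower (0.0946%). The scaffold did not move as a whole: 19 genes had a higher average in MYTHO-KD, 18 a lower one and 1 the same. The last was *Acta1*, at the top of the scale. The median log2 difference of the 38 genes was 0.01, against -0.01 over all probe sets. For 24 of the 38 the difference was under 0.3 in size on the log2 scale, a limit that 70.7% of all probe sets also met.

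**Figure D1:**
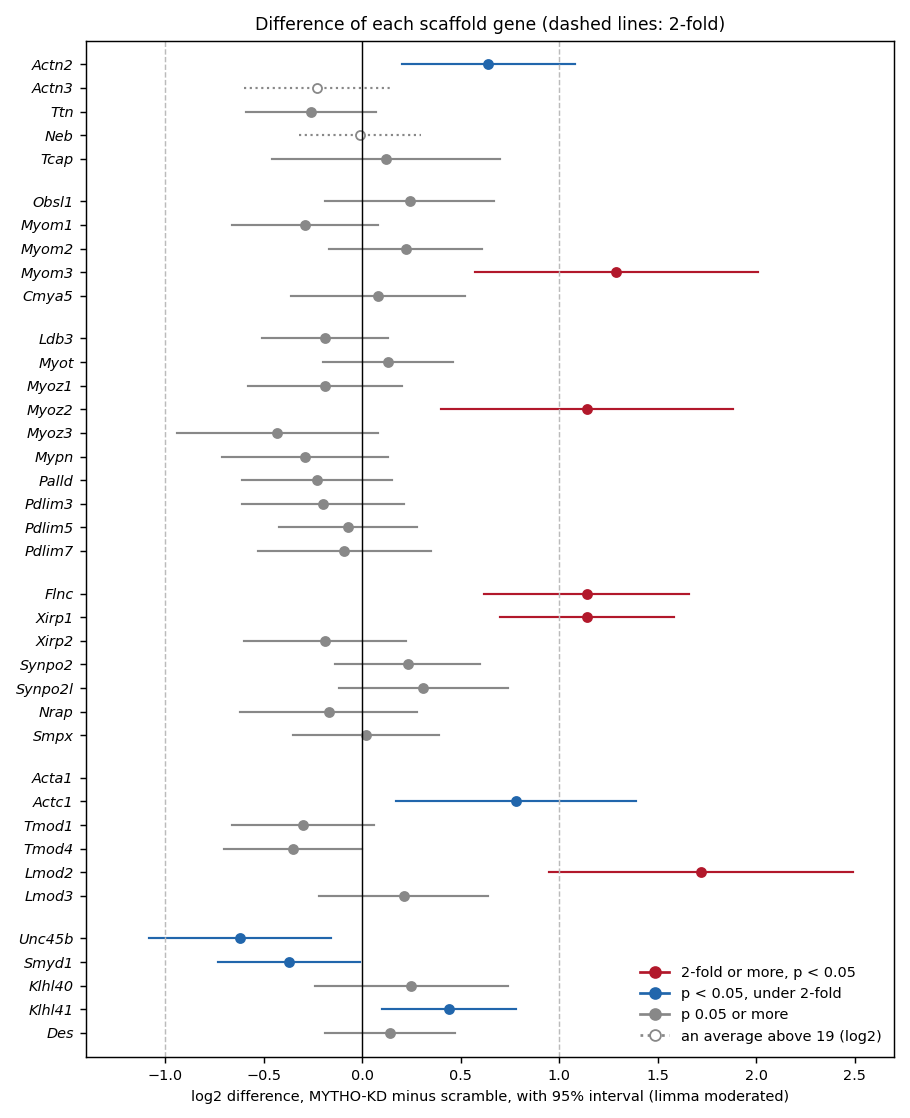
Log2 difference between MYTHO-KD and scramble for each of the 38 scaffold genes, grouped by role from the Z-disc (top) to assembly factors (bottom), with 95% intervals from limma's moderated test of 4 against 4 arrays. The 5 red genes, *Myom3*, *Myoz2*, *Flnc*, *Xirp1* and *Lmod2*, lie beyond the 2-fold line on the right, and no gene lies beyond the one on the left; open points mark genes near the top of the scale, and *Acta1*, with an SD of 0 in both groups, has no interval.

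**Figure D2:**
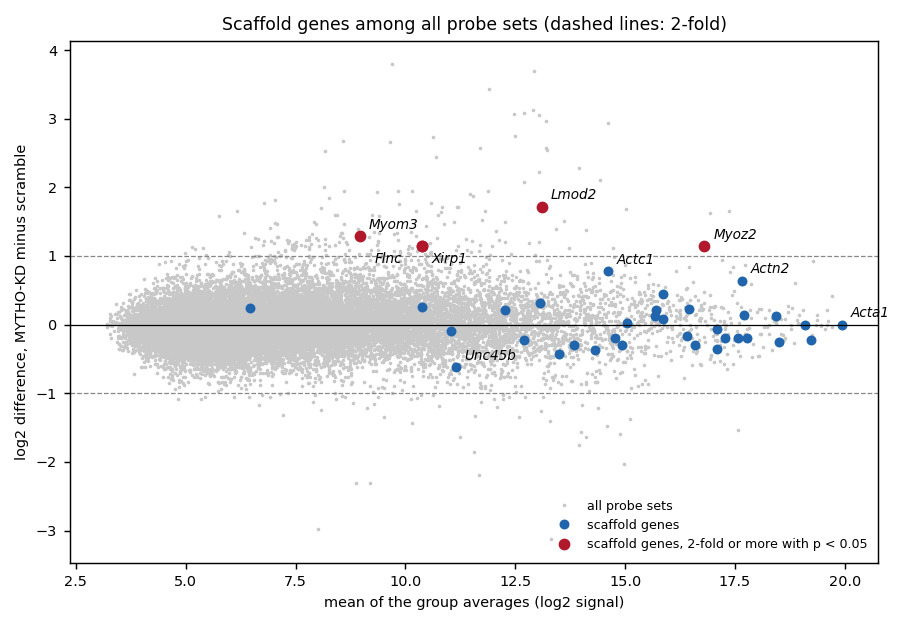
Log2 difference against mean log2 signal for all 22206 probe sets (grey) with the 38 scaffold genes in blue or, if raised 2-fold with p under 0.05, in red. Most scaffold genes sit at the bright end close to 0, with *Lmod2* at 1.72 and *Unc45b* at -0.62 as the extremes of the set, and the points of *Flnc* and *Xirp1* nearly coincide.

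The 5 raised genes lie on different chromosomes or far apart, and the stretches upstream of 4 of them are shown because motifs of muscle transcription factors were searched there. Each line gives the 250 bases before the RefSeq start of the gene (GRCm38.p6), 5′ to 3′ on the gene's own strand, and capitals mark a match to the MEF2 site, which binds the MEF2 factors of muscle.
*Lmod2*, chr6:24597521-24597770, plus strand: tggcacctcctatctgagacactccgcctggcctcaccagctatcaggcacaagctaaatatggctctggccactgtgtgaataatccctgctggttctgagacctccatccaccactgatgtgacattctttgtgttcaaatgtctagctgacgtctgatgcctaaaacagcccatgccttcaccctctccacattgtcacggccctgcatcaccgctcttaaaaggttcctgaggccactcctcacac
*Flnc*, chr6:29432903-29433152, plus strand: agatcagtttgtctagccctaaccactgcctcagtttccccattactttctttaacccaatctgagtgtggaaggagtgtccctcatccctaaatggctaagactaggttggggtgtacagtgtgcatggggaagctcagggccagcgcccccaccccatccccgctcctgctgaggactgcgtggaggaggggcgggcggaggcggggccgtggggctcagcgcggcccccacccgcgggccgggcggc
*Myom3*, chr4:135759465-135759714, plus strand: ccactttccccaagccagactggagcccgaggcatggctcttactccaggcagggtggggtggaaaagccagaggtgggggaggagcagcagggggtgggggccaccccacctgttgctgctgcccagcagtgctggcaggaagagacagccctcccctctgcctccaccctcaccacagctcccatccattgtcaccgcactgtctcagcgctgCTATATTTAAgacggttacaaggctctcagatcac
*Myoz2*, chr3:123034988-123035237, minus strand: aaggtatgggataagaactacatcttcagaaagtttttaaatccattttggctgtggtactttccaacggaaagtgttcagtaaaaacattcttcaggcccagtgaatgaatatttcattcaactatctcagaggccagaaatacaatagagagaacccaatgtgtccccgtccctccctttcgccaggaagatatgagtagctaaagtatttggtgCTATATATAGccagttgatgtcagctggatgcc
*Myom3* and *Myoz2* each hold a MEF2 match close to the start, at 35 to 26 bases upstream in *Myom3* and at 33 to 24 bases upstream in *Myoz2*. Neither *Lmod2* nor this start of *Flnc* holds one in the window.

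Promoter records were found for 29 of the 38 scaffold genes (35 records, since some genes have several starts). Each was searched on both strands over the 250 bases before the start. The MEF2 site was in 8 of the 35 records (22.9%), against 2.92% of all 32851 records, and these belong to 7 genes, *Klhl41*, *Myom3*, *Myoz2*, *Synpo2*, *Synpo2l*, *Ttn* and *Xirp2*. Of these 7, *Myom3* and *Myoz2* rose and the other five did not pass the 2-fold rule. The CArG box, bound by serum response factor, was in 5 of the 35 records (14.3%, against 1.47% of all records), from *Acta1*, *Actc1*, *Ldb3* and *Myom1*, none of them raised 2-fold. The MCAT element (CATTCC), bound by TEAD factors, was in 6 records (17.1%, against 12.6%), 1 of them from a raised gene (*Flnc*, before a second start). The E-box (CANNTG), which also fits the sites of MyoD family factors, was in 24 records (68.6%, near the 66.2% of all records), and TATAAA in 6 (17.1%, against 12.4%). The MEF2 site and TATAAA can cover the same bases. A match is a description of letters in these windows and not evidence that a factor binds.

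The actins and the proteins of the pointed end held the gene with the largest difference of the set. *Lmod2* (leiomodin 2), which lengthens thin filaments at the pointed end and is best known from heart, averaged 13.97 ± 0.58 in MYTHO-KD and 12.25 ± 0.70 in scramble (SD, n = 4). The 1 SD ranges did not overlap, and the difference of 1.72 (95% interval 0.95 to 2.49, 3.29-fold) ranked 36 among the rises of all probe sets. Its adjusted p in the limma fit was 0.0754. *Lmod3*, the leiomodin mainly used in skeletal muscle, averaged 12.37 against 12.16, a difference of 0.21 (-0.22 to 0.64).

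Tropomodulins cap the same end, and those of the set, *Tmod4* and *Tmod1*, had slightly lower averages in MYTHO-KD. Outside the set, *Tmod2* was higher by 0.54, at an unadjusted p under 0.05 in the limma fit, and *Tmod3* by 0.27. *Tmod4*, the skeletal muscle form, averaged 16.92 ± 0.20 against 17.27 ± 0.09 (SD, n = 4), a difference of -0.35 (-0.70 to 0.00) that lay just outside the unadjusted threshold here and passed it in 5 of the 6 other fits run. *Tmod1* differed by -0.30 (-0.66 to 0.06). *Actc1*, cardiac α-actin, which is also made in developing skeletal muscle, averaged 14.99 ± 0.64 in MYTHO-KD and 14.21 ± 0.21 in scramble (SD, n = 4). Its 1 SD ranges overlapped, since the SD was larger in MYTHO-KD, and the difference of 0.78 (0.17 to 1.39, 1.72-fold) had an adjusted p of 0.289 in the limma fit. It passed the unadjusted threshold of 0.05 there, but not when the variances were left unmoderated or were allowed to differ between the groups. *Acta1*, skeletal α-actin, stood at 19.93 with an SD of 0 in both groups, the highest value of the table. There a rise could not show, a fall could be hidden too, and no fold is given. Actins are nearly identical in their coding parts, and how far the probes of *Actc1* also bind RNA of *Acta1* was not tested.

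**Figure D3:**
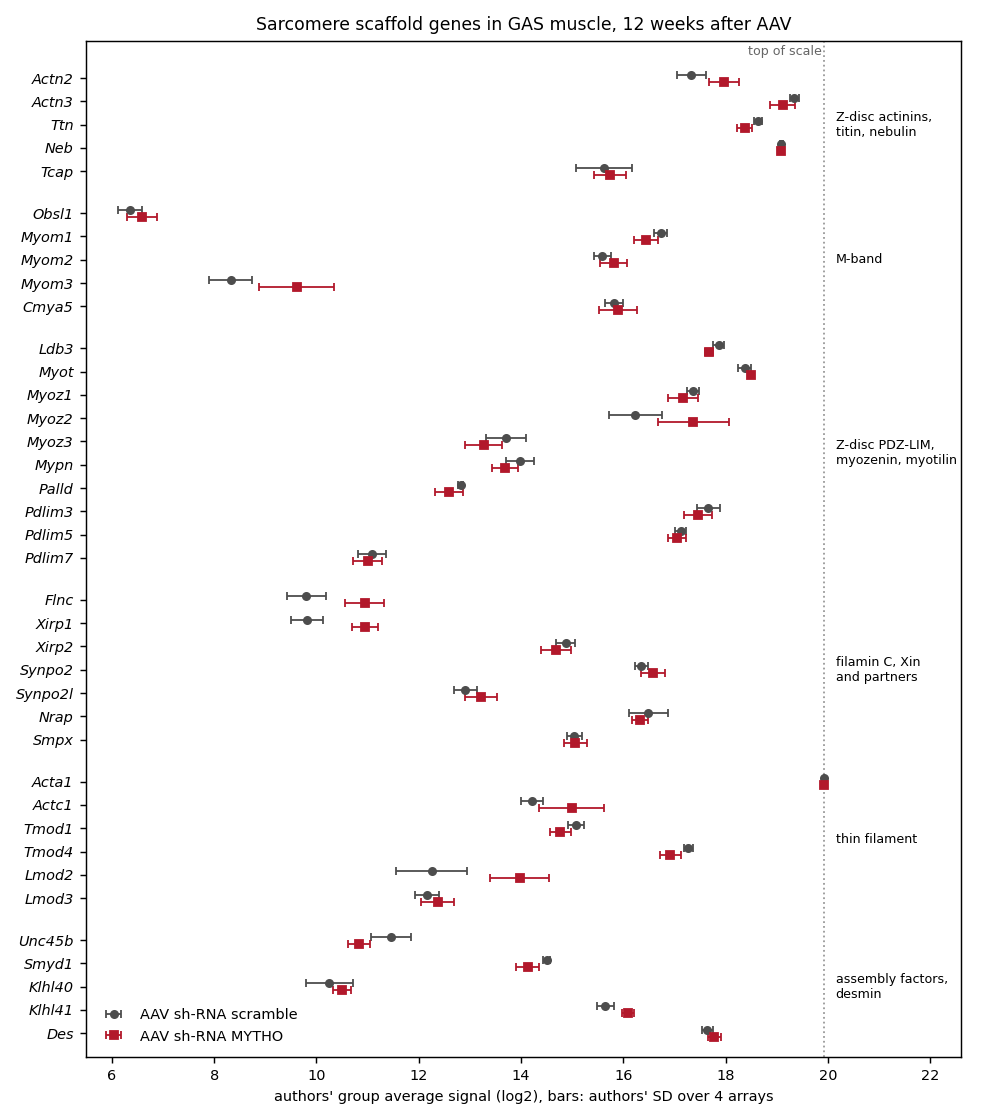
Authors' average log2 signal of each scaffold gene in scramble (grey circles) and MYTHO-KD (red squares) muscle, with bars of 1 SD over 4 arrays; levels are to be compared within a gene and not between genes. The groups are clearly apart for *Lmod2*, *Flnc* and *Xirp1*, and *Acta1* lies on the dotted line at the top of the scale.

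Among the filamin C and Xin genes, *Xirp1* and *Flnc* rose by the same amount. *Xirp1* (Xin), an actin-binding repeat protein, averaged 10.95 ± 0.26 in MYTHO-KD and 9.81 ± 0.31 in scramble (SD, n = 4). The ranges were well apart, and the difference of 1.14 (0.70 to 1.58, 2.20-fold) was the one with the smallest p of the set. Its adjusted p of 0.0443 in limma's moderated test lay close to the threshold, and it became 0.197 without moderation, 0.344 with unequal variances and 0.0511 after centring on a curve of signal. *Flnc* (filamin C), the muscle filamin that binds Xin, averaged 10.94 ± 0.38 against 9.80 ± 0.38 (SD, n = 4). Its 1 SD ranges were also apart, with a difference of 1.14 (0.62 to 1.66, 2.20-fold) and a limma adjusted p of 0.0776.

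The remaining genes of this group did not pass the test. *Xirp2*, the second Xin gene, averaged 14.68 against 14.87 (-0.19, interval -0.60 to 0.22). *Synpo2l* differed by 0.31 and *Synpo2* (myopodin), which links filamin C to α-actinin, by 0.23. *Nrap*, a nebulin-related protein of the myotendinous junction and of early myofibrils, differed by -0.17, and *Smpx*, a small muscle protein of the costamere, by 0.02. The group's median difference was 0.23, with 5 of 7 genes higher, while 46.9% of all probe sets were higher.

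The myozenins, myotilin and the PDZ-LIM proteins bind α-actinin at the Z-disc, and most had a slightly lower average in MYTHO-KD. Of these 10 genes 8 were lower and 2 higher, while 51.4% of all probe sets were lower and 46.9% higher. Their median difference was -0.19, and only *Myoz2* passed the test in either direction. *Myoz2* (calsarcin-1), the myozenin of heart and slow fibres and an inhibitor of calcineurin, averaged 17.37 ± 0.70 in MYTHO-KD and 16.23 ± 0.52 in scramble (SD, n = 4). It was the one raised gene whose 1 SD ranges overlapped, with a difference of 1.14 (0.40 to 1.88, 2.20-fold) and a limma adjusted p of 0.200. The myozenins of fast fibres were not higher: *Myoz1* averaged 17.17 against 17.36 (-0.19, interval -0.58 to 0.20), and *Myoz3* 13.27 against 13.70 (-0.43, interval -0.94 to 0.08).

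The rest of that group lay within 0.3 of 0 on the log2 scale. *Myot* (myotilin) differed by 0.13 and *Ldb3* (ZASP), a PDZ-LIM protein of the Z-disc, by -0.19. The related immunoglobulin-domain proteins *Mypn* (myopalladin) and *Palld* (palladin) differed by -0.29 and -0.23. *Pdlim3*, *Pdlim5* and *Pdlim7*, which bind α-actinin or signalling kinases through their PDZ and LIM domains, differed by -0.20, -0.07 and -0.09, and the probe set of *Pdlim7* also lists *Mir6945*.

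At the M-band, *Myom3* rose and the other myomesins did not pass the test. *Myom3* (myomesin 3), found in fibres of intermediate speed, averaged 9.61 ± 0.73 in MYTHO-KD and 8.32 ± 0.42 in scramble (SD, n = 4). The 1 SD ranges did not overlap, and the difference of 1.29 (0.57 to 2.01, 2.45-fold) had a limma adjusted p of 0.146. *Myom1*, present in all striated fibres, differed by -0.29 (-0.66 to 0.08), and *Myom2*, typical of fast fibres, by 0.22 (-0.17 to 0.61). *Obsl1* (obscurin-like 1), which ties myomesin to titin, differed by 0.24, and *Cmya5* (myospryn), a desmin- and titin-binding protein, by 0.08. *Obsl1* was the only scaffold gene below the median signal of all probe sets.

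Of the filaments and crosslinkers of the Z-disc, *Actn2* differed and the others did not pass the test. *Actn2*, the α-actinin of all fibre types and of heart, averaged 17.97 ± 0.29 against 17.33 ± 0.29 (SD, n = 4). Its 1 SD ranges were apart, and the difference of 0.64 (0.20 to 1.08, 1.56-fold) had a limma adjusted p of 0.227. *Actn3*, the α-actinin of fast fibres, averaged 19.11 against 19.34 (-0.23). *Ttn* (titin) averaged 18.37 ± 0.15 against 18.63 ± 0.07 (SD, n = 4), a difference of -0.26 (-0.59 to 0.07). *Neb* (nebulin) averaged 19.08 and 19.09 with an SD of 0.02 in each group, and *Tcap* (telethonin), which joins the ends of titin at the Z-disc, differed by 0.12 (-0.46 to 0.70). *Acta1*, *Actn3* and *Neb* had averages above 19, where a rise or part of a fall can be hidden by the top of the scale.

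The assembly factors included the 2 lower genes. *Unc45b*, the chaperone that folds muscle myosin, averaged 10.83 ± 0.22 in MYTHO-KD and 11.45 ± 0.39 in scramble (SD, n = 4). Its 1 SD ranges were just apart, and the difference of -0.62 (-1.08 to -0.16) left 65.1% of the scramble level, with a limma adjusted p of 0.268. *Smyd1*, a muscle methyltransferase that works with this chaperone in myofibril assembly, averaged 14.13 ± 0.22 against 14.50 ± 0.07 (SD, n = 4), with a difference of -0.37 (-0.73 to -0.01) and a limma adjusted p of 0.398.

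The Kelch proteins stabilise the thin filament. *Klhl41*, which protects nebulin, averaged 16.09 ± 0.11 against 15.65 ± 0.16 (SD, n = 4), a difference of 0.44 (0.10 to 0.78, 1.36-fold) with a limma adjusted p of 0.289. *Klhl40*, which also stabilises leiomodin 3, differed by 0.25 (-0.24 to 0.74). *Des* (desmin), the intermediate filament that ties Z-discs together, averaged 17.78 ± 0.12 against 17.64 ± 0.11 (SD, n = 4), a difference of 0.14 (-0.19 to 0.47).

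In several families, picked out after their values were seen, the gene that was higher had a relative in the set that did not pass the test. The 95% intervals did not overlap between *Actn2* and *Actn3*, between *Myoz2* and either *Myoz1* or *Myoz3*, between *Xirp1* and *Xirp2*, between *Lmod2* and *Lmod3*, or between *Myom3* and *Myom1*, while those of *Myom3* and *Myom2* did, as did those of *Klhl41* and *Klhl40*. The signal of *Actn3* is so close to saturation that part of a difference could have been lost, and *Acta1*, the relative of *Actc1*, is at its ceiling. *Flna*, the widely expressed relative of *Flnc*, was also higher, by 0.63, at p under 0.05. The differences between relatives were not tested themselves, because that needs the values of single arrays. Some scaffold genes are neighbours on a chromosome, and the intervals of neighbours overlapped. *Synpo2* lies 41528 bases from *Myoz2* with no probe set between them, and had a difference of 0.23 (-0.14 to 0.60) beside 1.14 (0.40 to 1.88). *Synpo2l* lies 2405 bases from *Myoz1* and had 0.31 (-0.12 to 0.74) beside -0.19 (-0.58 to 0.20).

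Spread of the scaffold genes was smaller than over the array at large in scramble and close to it in MYTHO-KD. The median SD of the 38 genes was 0.255 in MYTHO-KD and 0.185 in scramble, against 0.27 in both groups over all probe sets. The SD was larger in MYTHO-KD for 23 genes (60.5%, against 48.1% of all probe sets), larger in scramble for 11 and equal for 4. The 1 SD ranges were apart for 11 of the 38 genes, a share of 28.9%, against 7.99% of all probe sets. Among these 11, *Ttn*, *Ldb3*, *Tmod4*, *Unc45b* and *Smyd1* were lower in MYTHO-KD, and the rest were higher. The scaffold genes were brighter than most probe sets, with a median signal of 15.69 against 6.8. Spread was not compared at like signal, so these shares may reflect brightness. For the 28 genes at p of 0.05 or more, the 95% intervals reached 0.31 to 0.58 on the log2 scale to either side. The lower end of that range is set by the variance prior, since *Neb*, with an SD of 0.02 in each group, also had 0.31. Differences of *Ttn* and *Ldb3* inside it passed p under 0.05 in some of the other fits.

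The slow fibre contractile genes varied far more between muscles than the scaffold did. Their median SD was 2.11 in MYTHO-KD and 0.83 in scramble over 10 genes, reaching 3.67 and 1.43 for *Tnni1*, slow troponin I, and 3.26 and 1.30 for *Myh7*, slow myosin. Their differences ran from -1.03 to 0.84 with a median of -0.165, 4 higher and 6 lower, and 1 gene passed p under 0.05 (*Mybpc1*, 0.84). *Myoz2* and *Myom3*, which slow or intermediate fibres use, had SDs of 0.70 and 0.73 in MYTHO-KD and of 0.52 and 0.42 in scramble. Of the 14 fast fibre genes, 4 were higher, 6 lower and 4 at the same value, and the median was 0. The 4 without a difference (*Myh4*, *Myl1*, *Tpm1* and *Atp2a1*) stood at 19.93, the top of the scale, in both groups. Higher at p under 0.05 were 2, both fast myosins: *Myh1* by 0.59 and *Myh2* by 0.41. *Myh2* averaged 19.91 with an SD of 0.01 in MYTHO-KD, close to the top of the scale. Its difference and spread there may be limited by that ceiling. The paper reports the opposite direction in another muscle, the tibialis anterior, with *Myh2* lower by RT-qPCR at every stage measured. At the stage used here, it also found a smaller share of type IIA fibres there, which hold the myosin of *Myh2*. Why the direction differs was not tested, so the value of *Myh2* is not read as a rise of this myosin. The part of fibre composition in the scaffold values was not tested.

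**Figure D4:**
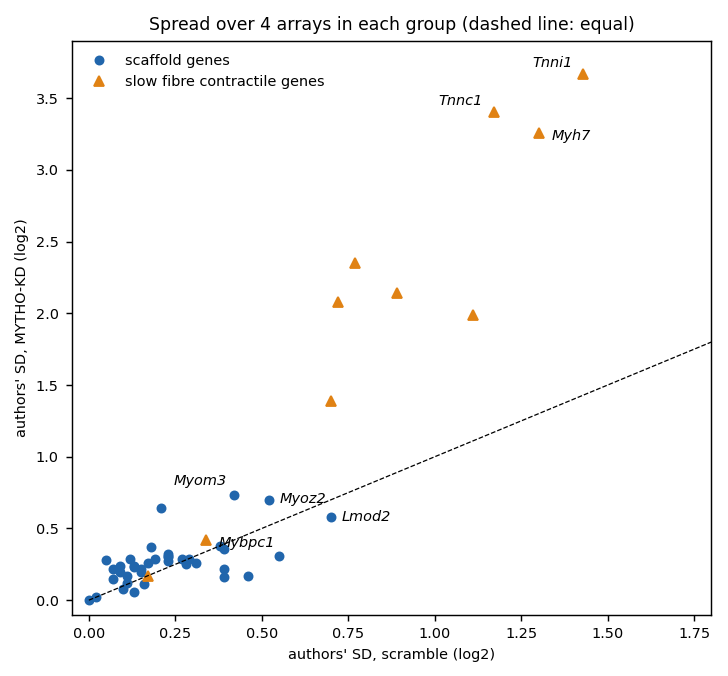
Authors' SD over 4 arrays in MYTHO-KD against that in scramble (both log2) for the 38 scaffold genes (blue circles) and 10 slow fibre contractile genes (orange triangles). Slow fibre genes reach an SD of 3.67 in MYTHO-KD (*Tnni1*), while no scaffold gene exceeds 0.73 (*Myom3*).

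Other proteins of the same structures were set beside the scaffold. Of 25 further Z-disc and titin partners, 3 rose 2-fold with p under 0.05 and 0 fell, 7 were higher and 2 lower at p under 0.05, and the median difference was 0.30. The raised ones were *Csrp3* (muscle LIM protein, 11.99 ± 0.30 against 9.25 ± 1.11, SD, n = 4, a difference of 2.74), *Ankrd2* (a titin-bound ankyrin repeat protein, 2.10) and *Pdlim1* (a PDZ-LIM protein, 1.68). Their limma adjusted p were 0.0292, 0.0754 and 0.134. Of 17 further genes of thin filament ends, capping and assembly, 2 rose and 0 fell, 5 were higher and 3 lower at p under 0.05, with a median of 0.08. The raised ones were *Hspb7*, a small heat shock protein that binds actin and filamin C (18.20 ± 0.38 against 16.55 ± 0.65, SD, n = 4, a difference of 1.65), and *Bag3*, a co-chaperone for the turnover of filamin (1.03). The limma adjusted p was 0.0528 for *Hspb7* and 0.32 for *Bag3*. Of 15 intermediate filament and costamere genes, 0 passed the 2-fold rule in either direction, 3 were higher and 2 lower at p under 0.05, and the median was 0.04. The 3 with the lowest p were *Vim* (vimentin, 0.94), *Krt18* (keratin 18, -0.56) and *Itgb1* (integrin β1, 0.40).

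Markers of other cells in the muscle mostly had higher averages in MYTHO-KD too, while 46.9% of all probe sets were higher. Whether they and the raised scaffold genes were higher in the same muscles cannot be seen from group averages. All 10 fibroblast and matrix genes had a higher average (median 0.93, 5 raised 2-fold), as did all 10 macrophage genes (median 0.695, 3 raised, *Cd68* by 2.53) and all 8 endothelial genes (median 0.355, 0 raised). Mean log2 levels went from 9.83 to 10.84 for the fibroblast list and from 7.14 to 8.13 for the macrophage list. Of 8 tendon and myotendinous junction genes 7 were higher (median 0.675, 2 raised, *Thbs4* by 1.90 and *Comp* by 1.14). Of 10 smooth muscle genes, which share filamin and palladin proteins with striated muscle, 8 were higher but 0 passed p under 0.05 (median 0.19). Of 9 regenerating fibre genes, 5 were higher, 2 lower and 2 at the same value (median 0.16). The 3 that rose were *Mybph* by 3.13, *Tmem8c* (myomaker, needed for fusion) by 1.77 and *Myh3* (embryonic myosin) by 1.27. *Myog* differed by 0.21, *Ncam1* by 0.16, *Chrng* by -0.10 and *Myod1* by -0.40. *Myl4* did not differ, and *Myh8* stood at the top of the scale. Every gene of these lists was flagged as expressed in scramble, and all but 1 regenerating fibre gene in MYTHO-KD, as most probe sets were. The part of these cells in the scaffold results was not tested.

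**Figure D5:**
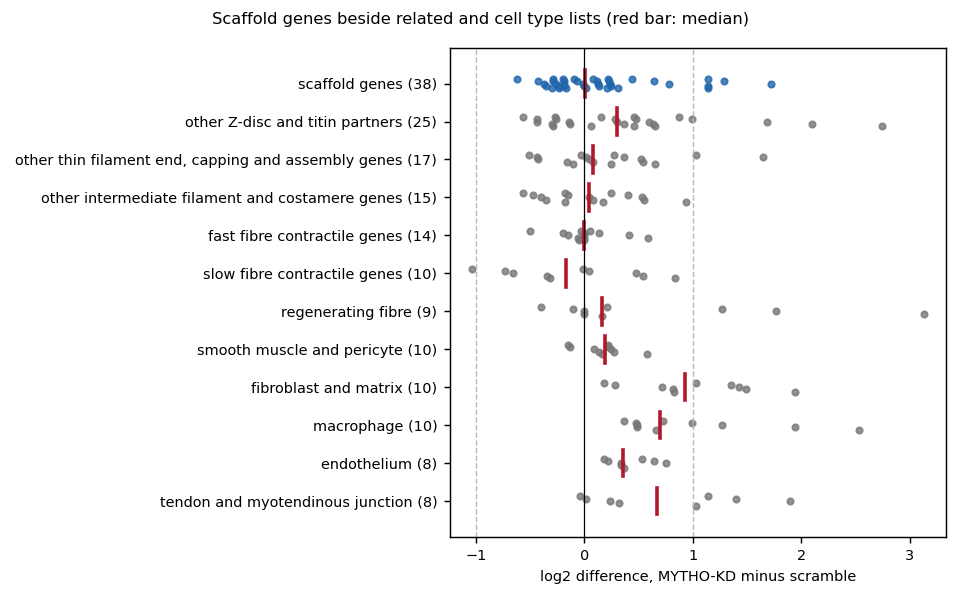
Log2 difference between MYTHO-KD and scramble for each gene (points) of the 38 scaffold genes, 3 lists of related genes and 8 cell type lists, with the number of genes in parentheses and the median as a red bar. The scaffold median lies at 0.01, while the fibroblast (0.93), macrophage (0.695) and tendon (0.675) lists lie to the right. The fast fibre median is 0, with 4 of its genes at the top of the scale in both groups, where no difference can show.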

How the data were processed

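GAS RNA of 4 MYTHO-KD and 4 scramble muscles was hybridised to Clariom S arrays, and the authors normalised the arrays in the Transcriptome Analysis Console (SST-RMA). Per the labels, the processing notes name Affymetrix Expression Console, RMA and build mm10. The table deposited by the authors holds other values derived from these arrays, namely log2 group averages, SDs and expression flags. It also holds fold changes, p-values and false discovery rates of the authors' own comparison, which were not used, and 0 columns of single arrays were left unused. The kind of average is not given in the sources used here, and if it is not a plain mean, p-values may be somewhat low.

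In R 4.3.3, limma 3.58.1 was run on the averages and SDs: the mean of both group variances, on 6 residual degrees of freedom, went into squeezeVar, whose prior had an SD of 0.284 on 5.85 degrees of freedom. Two-sided p-values were adjusted by Benjamini-Hochberg over 22206 probe sets. The script was tested on simulated data. "Rose" and "fell" mean at least 2-fold with an unadjusted p under 0.05, as in the study's methods. Legs of 1 mouse received both viruses, but no pairing could be fitted. The number of arrays limits the precision. Members and lists were chosen with earlier results of these data known, and every member is named. Of each related list, genes past the call rule, or otherwise the 3 with the lowest p, are named, with some relatives of scaffold genes. Promoter sequences are from RefSeq (GRCm38.p6), and no protein sequences were used here.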

Additional observations from a re-analysis of the deposited data

How the results depend on the processing

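The count of 5 raised scaffold genes was 5 in each of 6 other fits: no moderation, a trended robust prior, unequal variances, dim probe sets left out, 1 probe set per symbol, and centring on a lowess curve. Over all probe sets, 153 of 22206 (unequal variances) to 190 of 21983 (1 probe set per symbol) rose in these fits. None of the scaffold genes fell, but only the centring changes a log2 difference. At 1.5-fold, 7 were higher and 1 lower, with the share over all probe sets not given here. With an adjusted p under 0.05, 1 was higher at 2-fold, 1 was higher at any fold and 0 were lower. Scaffold genes at an unadjusted p under 0.05 numbered 7 to 8 higher in the 6 fits. Over all probe sets, 1010 of 22206 (unequal variances) to 1488 of 22206 (centring) were higher. Lower genes, 2 as reported, were 5 without moderation (1155 of 22206 probe sets) and 5 with unequal variances (991 of 22206). They were 4 with the trended robust prior (1239 of 22206) and 3 after centring (1173 of 22206). With dim probe sets left out they were 3 (970 of 15564), and with 1 probe set per symbol 2 (1214 of 21983). *Tmod4* joined in 5 of these fits, *Ttn* in the first 3 and *Ldb3* without moderation and with unequal variances. The cause of the low p-values of these genes there was not tested. *Actc1* lost its call in 2 fits. Directions and the median could change only with the centring, since the other fits keep each log2 difference, and no gene changed direction there. The adjusted p of *Xirp1* ran from 0.0177 to 0.344, and the trended robust prior gave 3 scaffold genes an adjusted p under 0.05. The median difference was 0.01 or, after centring, -0.004. No paired analysis was possible because the table analysed holds group averages, and leaving out each replicate was not run for the same reason. Every scaffold gene had 1 probe set, so a second one could not be tried. Signals near the top of the scale limit 3 genes, *Acta1*, *Actn3* and *Neb*.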
